A study of Mus musculus with 4 samples.

Results

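The 39 genes described here are interferon-stimulated genes, chosen by symbol as genes that cells switch on in response to interferon, and 38 of them have a row among the 32285 genes of the count tables. The remaining gene, Mx1, was not analysed here. Their levels were read from single-cell RNA-seq of hepatic CD4+ T cells sorted by flow cytometry, with 1 library from WT mice and 1 from dKO mice, in which the floxed alleles of Nr4a1 and Nr4a2 (Nr4a1 fl/fl Nr4a2 fl/fl) are deleted by Cd4Cre. Mice of both genotypes were fed CD, a choline-deficient diet with 60 kcal% fat and 0.1% methionine that induces steatohepatitis, for 8 weeks. Each library pooled cells of 2 male mice, whose cells cannot be told apart, so there is no replicate of a genotype, no test between genotypes was possible, and the intervals below (95%) cover counting error only. Cd4Cre deletes during T cell development, and whether it acted in the other cells found here was not tested. Where a pair of values is given, the first is from the library labelled WT and the second from that labelled dKO.

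Interferons are secreted proteins that warn cells of viruses and other danger. Type I interferons bind the receptor chains Ifnar1 and Ifnar2, whose kinases Jak1 and Tyk2 phosphorylate STAT proteins such as Stat2. Together with Irf9, Stat2 forms part of a factor that binds a DNA motif, the interferon-stimulated response element (ISRE), in front of its target genes. Interferon gamma, made by T cells and NK cells, acts through Ifngr1 and Ifngr2 and shares many of the targets. Plasmacytoid dendritic cells (pDCs) are known for making large amounts of type I interferon when Tlr7 or Tlr9 senses nucleic acid, and they hold much Irf7 and Irf8 beforehand.

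The ISRE is shown first because it is what many of these genes share in sequence. It was searched on both strands as the letters GAAA, any 2 bases and GAAA (on the opposite strand TTTC, any 2 bases and TTTC) in the 250 bases upstream of each RefSeq transcription start, and overlapping matches were counted separately. Of the 31 listed genes with a promoter in the RefSeq set (GRCm38.p6), 16 (51.6%) held a match, against 936 of 27025 genes (3.46%). A match is a description of the letters and was not tested as a binding site. The 150 bases upstream of the start are printed 5′ to 3′ along each gene's strand, with capitals marking the ISRE letters or their reverse complement. Isg15 (chr4:156200819-156200968 on the minus strand), a ubiquitin-like modifier, held 3 overlapping matches. Ifit1 (chr19:34640739-34640888 on the plus strand) and Ifit3 (chr19:34583379-34583528 on the plus strand), which bind foreign RNA or their partner proteins, and Rsad2 (chr12:26456453-26456602 on the minus strand), an antiviral enzyme also called viperin, are members of the core response described below.
Isg15: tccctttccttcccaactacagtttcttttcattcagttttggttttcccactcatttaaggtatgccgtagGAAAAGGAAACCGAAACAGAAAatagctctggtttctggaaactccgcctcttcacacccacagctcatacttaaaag
Ifit1: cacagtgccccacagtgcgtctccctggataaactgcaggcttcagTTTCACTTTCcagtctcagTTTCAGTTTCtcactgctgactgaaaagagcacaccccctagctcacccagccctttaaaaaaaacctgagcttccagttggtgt
Ifit3: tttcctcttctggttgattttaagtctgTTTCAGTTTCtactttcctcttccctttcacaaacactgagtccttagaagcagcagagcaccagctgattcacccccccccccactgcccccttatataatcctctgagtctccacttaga
Rsad2: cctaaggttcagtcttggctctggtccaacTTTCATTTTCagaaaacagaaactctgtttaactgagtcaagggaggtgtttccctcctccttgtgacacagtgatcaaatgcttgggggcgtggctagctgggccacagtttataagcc

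Ifi206 (chr1:173491319-173491468 on the minus strand) and Ifi213 (chr1:173599273-173599422 on the minus strand), neighbours of the p200 family of nuclear DNA-binding proteins, carry the same 10 letters and were called lower in T cells of the library labelled dKO. A further gene of that family, Ifi203, carries these letters too, and its log2 ratio of dKO to WT in T cells was −0.47, short of 2-fold. Oas3 (chr5:120777660-120777809 on the minus strand), which makes the second messenger that activates RNase L, is shown for the same reason. Isg20 (chr7:78913274-78913423 on the plus strand, the first of its starts), an RNA exonuclease and the one member that was called higher, by 2-fold or more, in T cells of the library labelled dKO, and Oasl1 (chr5:114923090-114923239 on the plus strand), which is related to the Oas enzymes, held no match in this window.
Ifi206: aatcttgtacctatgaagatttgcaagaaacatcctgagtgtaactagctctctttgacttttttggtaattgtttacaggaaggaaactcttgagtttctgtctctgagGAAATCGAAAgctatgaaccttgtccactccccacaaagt
Ifi213: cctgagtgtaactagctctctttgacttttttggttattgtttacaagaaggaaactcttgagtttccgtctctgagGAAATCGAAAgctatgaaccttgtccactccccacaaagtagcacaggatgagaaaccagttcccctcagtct
Oas3: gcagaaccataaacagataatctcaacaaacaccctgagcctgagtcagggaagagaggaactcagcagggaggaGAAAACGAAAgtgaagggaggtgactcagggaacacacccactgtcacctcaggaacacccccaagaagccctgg
Isg20: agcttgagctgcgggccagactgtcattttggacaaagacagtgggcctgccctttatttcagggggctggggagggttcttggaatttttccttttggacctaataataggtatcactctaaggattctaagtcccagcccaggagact
Oasl1: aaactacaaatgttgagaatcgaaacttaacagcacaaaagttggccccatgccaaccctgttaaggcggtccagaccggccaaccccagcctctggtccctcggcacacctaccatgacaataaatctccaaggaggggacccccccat

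Several of the genes lie in clusters on mm10. The 5 Ifit genes span chr19:34550694-34650009, the 4 genes of the p200 family chr1:173468485-173942672, the 3 Oas genes chr5:120730333-120907521, both Oasl genes chr5:114896936-114937915 and both Schlafen genes chr11:82951349-83122670. Near-identical copies can split or share reads. Of all 90-base windows of its transcripts, Ifit3 shared 35.1% with Ifit3b, Ifit3b shared 30.5% with Ifit3, Oas1a shared 43.4% with Oas1g, Ifi209 shared 19.1%, Phf11b 18.3%, Ifi206 14.7% and Rtp4 9.75% with other genes. The values of these 7 genes are therefore uncertain. The windows cover whole transcripts and not only the part read in a 5′ library. These shares thus do not measure the part of the counts affected, which was not tested.

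The filtered libraries held 10556 WT and 17462 dKO cells, with medians of 1679 and 1685 UMIs (unique molecular identifiers, each 1 counted RNA molecule) per cell, and 242 cell barcodes occur in both. The listed genes gave 0.276% of all UMIs in the library labelled WT (64689 of 23437516) and 0.252% in that labelled dKO (95113 of 37794986). Levels are given in CPM, the UMIs of a gene summed over the cells of a class and scaled to a fixed total of the class's UMIs in that library, and differences as log2 ratios of CPM. Nr4a1 and Nr4a2 went against the label: in T cells Nr4a1 stood at 724 CPM in the library labelled WT and 1905 CPM in that labelled dKO, and Nr4a2 at 201 and 439 CPM. In pDCs, Nr4a1 stood at 597 and 1328 CPM. Counts per gene do not show which exons were read, so they cannot tell a deleted from an intact transcript. Directions between genotypes below are therefore directions between these 2 libraries.

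Cells were assigned to pDCs, myeloid cells or T cells by UMIs of fixed marker genes, and cells with markers of more than 1 lineage or of none were kept apart. pDCs numbered 1508 in the library labelled WT and 3806 in that labelled dKO, and T cells 6455 and 10352. Both libraries thus held many cells that were not T cells by these markers. The 6 pDC genes that the assignment did not use summed to 1467 and 1075 CPM in pDCs and to 30.2 and 26.8 CPM in T cells. Myeloid cells with at least 1 UMI of C1qa, C1qb or C1qc, complement genes of tissue macrophages, numbered 140 and 242, and those without numbered 107 and 135. T cells were divided into cycling (574 and 494), Foxp3 (368 and 2827), Il17 (139 and 271), Ifng (1323 and 643), naive-like (1560 and 923) and other T cells (2491 and 5194). These shares differ widely between the libraries, so comparisons of the libraries are also given within each class. The classes themselves differed too. The 6 regulatory T cell genes outside the assignment summed to 1393 and 5016 CPM in other T cells, beside 3826 and 6700 CPM in Foxp3 T cells. In Ifng T cells they summed to 1080 and 2638 CPM. Ratios within classes, and the weighting by class below, are thus not freed of differences in make-up.

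Some RNA of other cells reaches each droplet, which sets a floor under the levels. The 6 T cell genes outside the assignment stood in pDCs at 10.4% to 17.7% of their T cell level in the library labelled WT and at 7.18% to 12.7% in the library labelled dKO. A gene in pDCs at or below that share of its T cell level is read here as background. The 6 pDC genes outside the assignment stood in T cells at 2.06% and 2.50% of their summed pDC level. Median depth was 1596 and 3024.5 UMIs in pDCs and 1924 and 1463 UMIs in T cells. A class with 0 UMIs of a gene was given 3 UMIs as the upper limit of what a count of 0 allows.

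**Figure D1:**
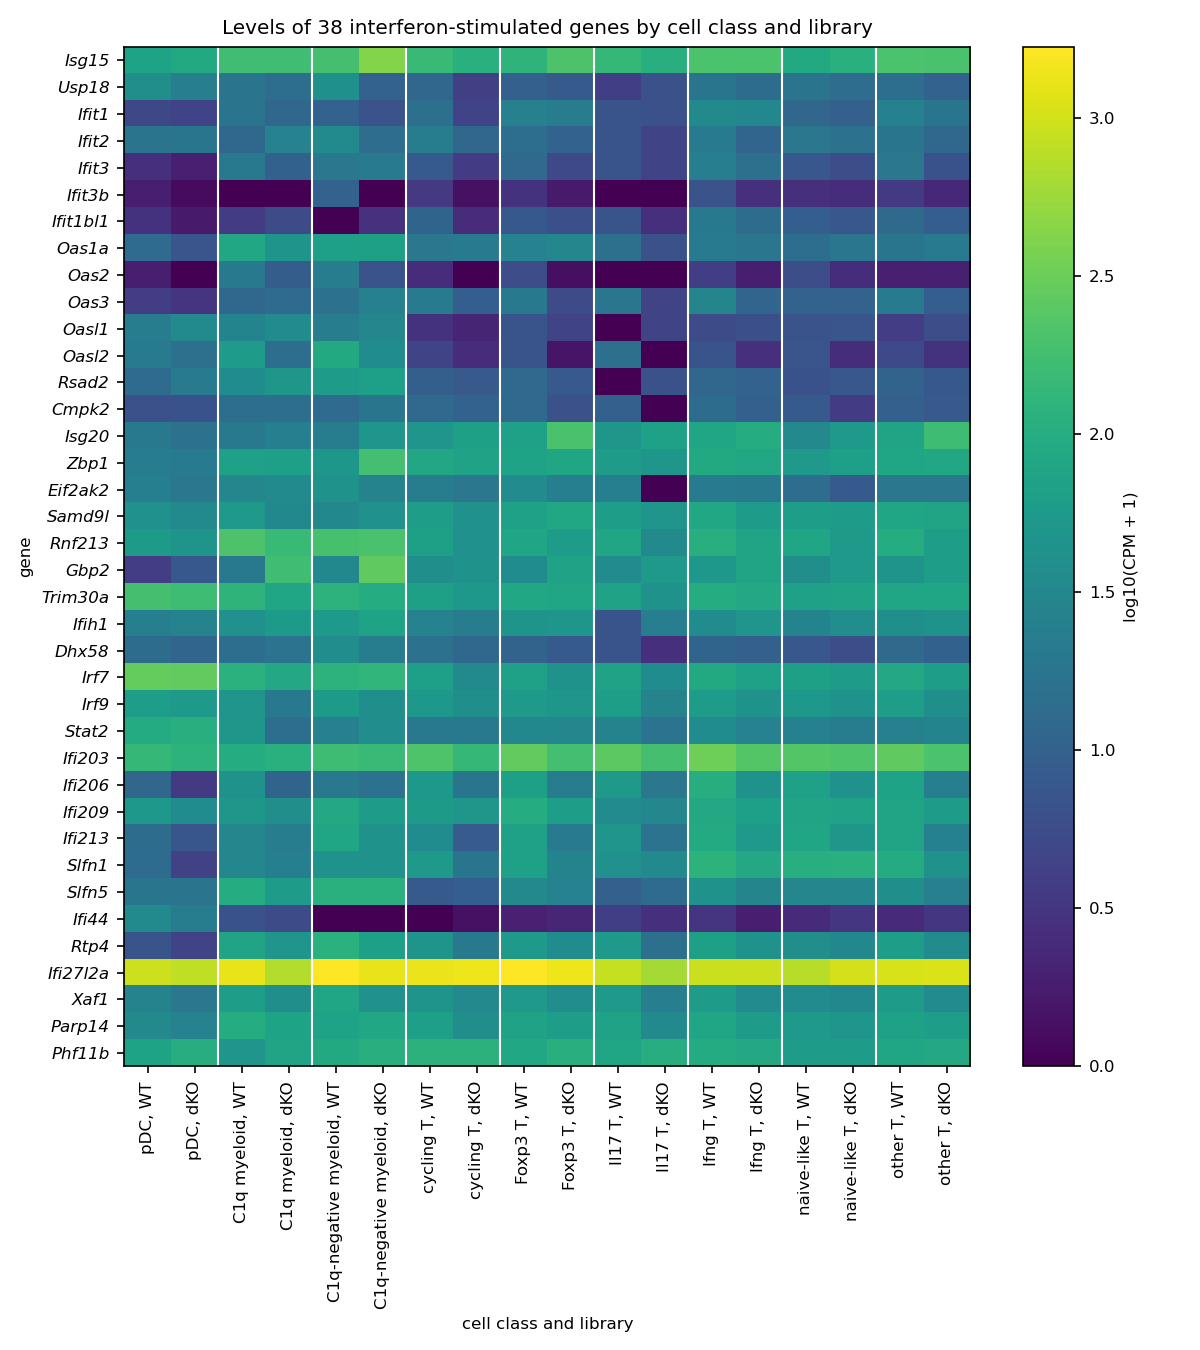
Levels of the 38 interferon-stimulated genes (rows, grouped by family or role) in 9 cell classes of each library (columns), coloured by log10(CPM + 1). Ifi27l2a is bright in every column, Irf7, Trim30a, Stat2 and Ifi44 are brightest in pDCs, and Oas1a, Oas2, Oasl1, Oasl2, Rsad2 and Slfn5 are brightest in the myeloid columns.

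Summed over all 38 genes, T cells, pDCs and myeloid cells stayed within 2-fold of each other. The sum was 2841 and 2727 CPM in T cells of the libraries labelled WT and dKO, 2417 and 2175 CPM in pDCs, 3212 and 2363 CPM in C1q myeloid cells and 3888 and 3924 CPM in C1q-negative myeloid cells. Ifi27l2a alone supplied 36.3% and 43.7% of these UMIs in T cells. Without it the sums were 1811 and 1535 CPM in T cells and 1465 and 1344 CPM in pDCs. These totals covered opposite patterns of single genes, which are described next. Of the 38 genes, 15 had their highest level in a myeloid class in both libraries, 4 in pDCs and 11 in a T cell class. No such count was made over all genes, and the myeloid classes are small, so some of their levels rest on few UMIs. These counts are therefore not read as particular to the listed genes.

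pDCs held more Irf7 and Stat2 than T cells and less of most Ifit genes. A gene was called higher or lower where its CPM differed by 2-fold or more and both groups together held at least 20 UMIs. Of 38 genes, 7 were called higher in pDCs than in T cells of the library labelled WT, against 14.5% of all genes, and 15 lower, against 23.1%. Of 37 genes compared in the library labelled dKO, 8 were called higher, against 15.5% of all genes, and 16 lower, against 23.8%. The median log2 ratio was −0.83 and −0.68, beside −0.21 and −0.19 over all genes. In both libraries the same 7 genes were called higher (Irf7, Stat2, Usp18, Trim30a, Oasl1, Oasl2 and Ifi44) and the same 14 lower.

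Irf7, the factor that pDCs use to switch on type I interferon genes, stood at 290 CPM in pDCs and 77.2 CPM in T cells of the library labelled WT, and at 277 and 51.7 CPM in the library labelled dKO. The log2 ratio of pDCs to T cells was 1.91 (1.79 to 2.03) and 2.42 (2.32 to 2.52). With each cell thinned to 1000 UMIs, so that deep and shallow cells can be compared, Irf7 was found in 23.5% and 21.8% of pDCs and in 6.79% and 5.05% of T cells. Stat2, the partner of Irf9, was at 95.2 and 102 CPM in pDCs and at 26.8 and 26.2 CPM in T cells. Irf9 itself differed little, with 61.5 and 52.7 CPM in pDCs and 56.7 and 42.6 CPM in T cells. Of the 3 transcription factors in the list, 2 were thus called higher in pDCs in both libraries.

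Ifi44, a cytoplasmic antiviral protein gene, showed the widest gap. It stood at 34.2 and 21.9 CPM in pDCs and at 1.35 and 1.61 CPM in T cells, a log2 ratio of 4.67 (3.99 to 5.41) and 3.77 (3.23 to 4.36). Its T cell level was 3.93% and 7.33% of its pDC level, while single pDC genes that the assignment left out reached 5.27% and 6.30%. Trim30a, which restrains Toll-like receptor signalling, was at 188 and 168 CPM in pDCs and at 78.3 and 73.4 CPM in T cells. Usp18, the enzyme that removes Isg15 from proteins and damps the type I receptor, was at 38.2 and 22.9 CPM in pDCs and at 14.0 and 8.29 CPM in T cells. Oasl1, which limits the translation of Irf7, was at 21.3 and 32.8 CPM in pDCs against 3.91 and 4.04 CPM in T cells. Oasl2 was at 20.2 and 14.3 CPM in pDCs against 5.26 and 1.40 CPM in T cells. Trim30a, Usp18 and Oasl1 are known for restraining interferon responses.

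The Ifit genes lay on the other side. Of the 5 genes, 4 (all but Ifit2) were called lower in pDCs than in T cells in both libraries. Ifit1 stood at 3.93 and 3.41 CPM in pDCs and at 20.9 and 16.4 CPM in T cells, a log2 ratio of −2.41 (−3.30 to −1.64) and −2.26 (−2.76 to −1.80). Ifit3, its binding partner, stood at 1.68 and 0.893 CPM in pDCs and at 13.6 and 5.18 CPM in T cells. These pDC levels were 18.8% and 20.8% of the T cell level for Ifit1, 12.4% and 17.2% for Ifit3 and 16.7% and 11.6% for Ifit1bl1. By the share that T cell genes reach in pDCs, Ifit1bl1 is read as background in both libraries and Ifit3 in the library labelled WT. The point values of Ifit1 and Ifit3b (29.2% and 23.5%) lay above that share. Ifit3b rests on 3 UMIs in pDCs of each library and Ifit1 on 14 in the library labelled WT. These are too few to place Ifit3b in either library, or Ifit1 in the library labelled WT, above background. In the library labelled dKO, Ifit1 rests on 42 UMIs in pDCs, and its 20.8% lay above that share. Isg15, whose product Usp18 removes, stood at 73.3 and 89.0 CPM in pDCs and at 158 and 179 CPM in T cells, so modifier and protease differed in opposite directions.

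Other genes were at background in pDCs. Gbp2, a guanylate-binding protein induced mainly by interferon gamma, stood at 2.81 and 6.74 CPM in pDCs and at 43.2 and 61.5 CPM in T cells, 6.5% and 10.9% of the T cell level. Rtp4 stood at 10.9% of its T cell level in both libraries, Slfn1 at 13.1% and 7.44%, and Ifi206 at 14.5% and 10.2%. Isg20 stood at 32.4% of its T cell level in the library labelled WT and at 10.4% in the library labelled dKO. For these genes the RNA counted in pDCs was no more, relative to T cells, than that of genes which pDCs should lack, with the exception of Isg20 in the library labelled WT. Whether other cells' RNA supplied it was not tested.

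**Figure D2:**
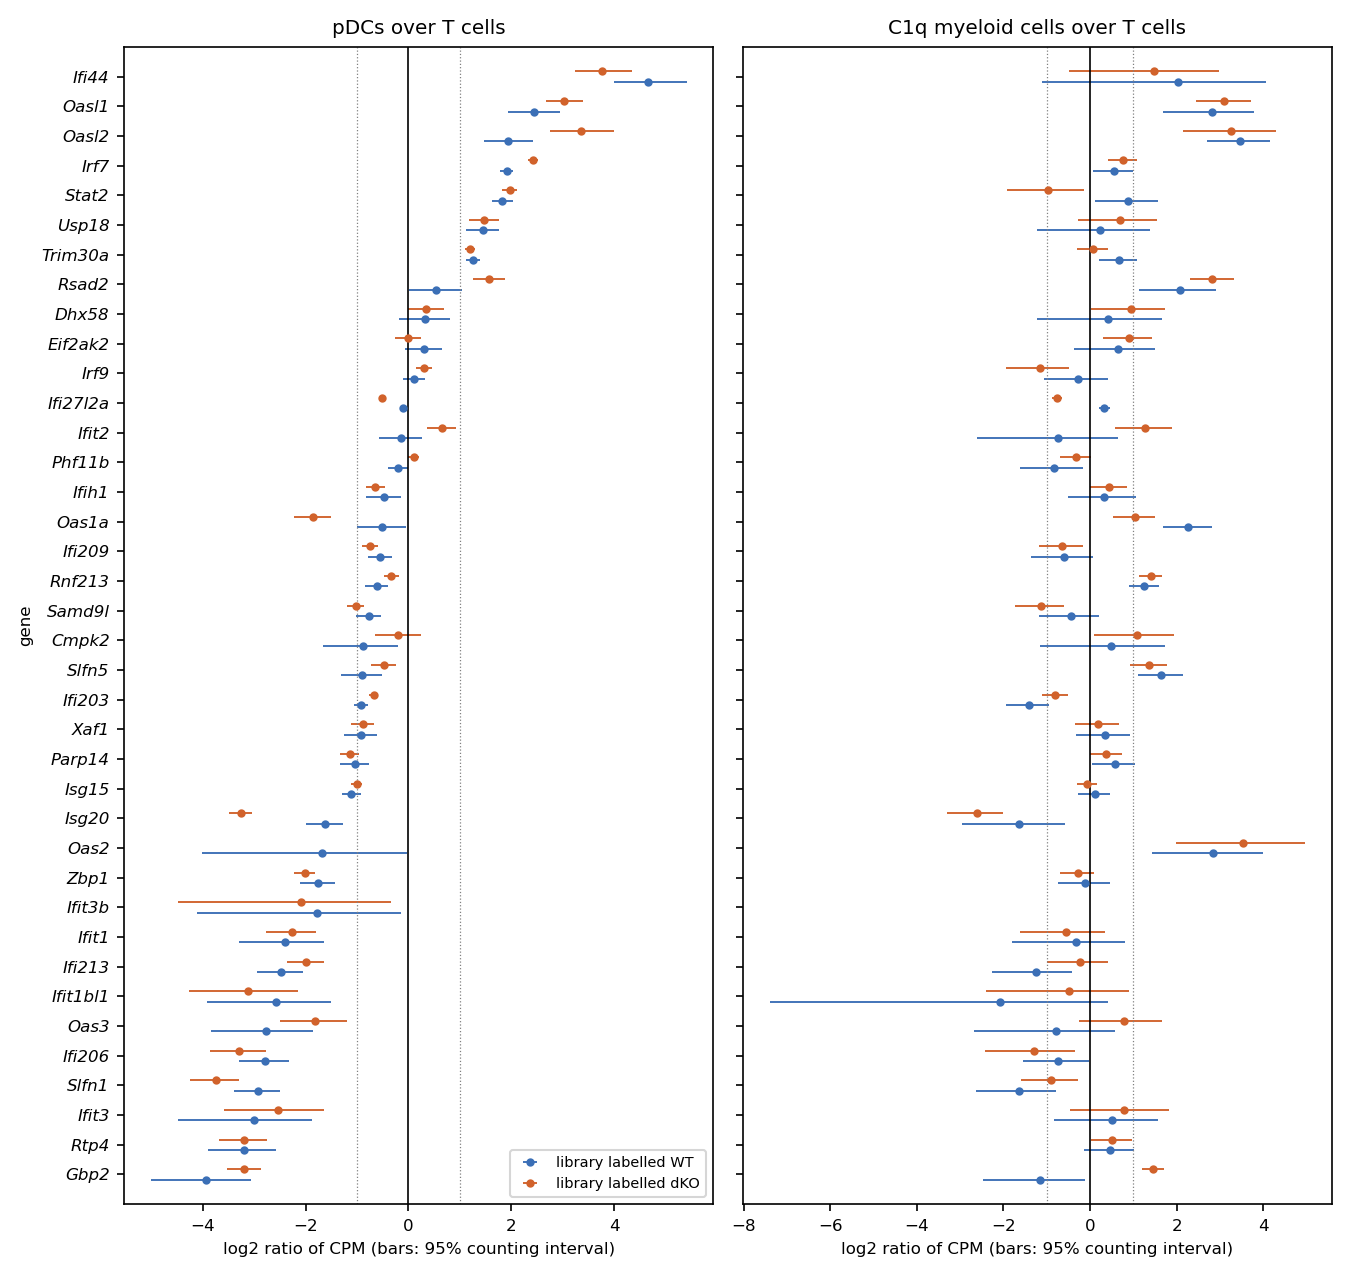
Log2 ratio of CPM in pDCs over T cells (left) and in C1q myeloid cells over T cells (right) for each gene, 1 point per library with its 95% counting interval, and a dotted line at 2-fold on each side. Genes with no UMI in 1 of the groups are left out. In pDCs, Ifi44, Oasl1, Oasl2 and Irf7 lie far to the right and Gbp2, Rtp4, Slfn1 and Ifi206 far to the left in both libraries.

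The rest of the interferon pathway divided in a similar way. Of 11 genes of nucleic acid sensing, 9 could be compared and 3 were called higher in pDCs in both libraries (Tlr7, Tlr9 and Unc93b1) and 2 lower (Ddx58 and Cgas). Unc93b1, which carries Tlr7 and Tlr9 to endosomes, stood at 724 and 810 CPM in pDCs and at 20.9 and 23.2 CPM in T cells. Ddx58, the cytosolic RNA sensor RIG-I, stood at 7.02 and 3.90 CPM in pDCs and at 57.8 and 45.9 CPM in T cells, 12.1% and 8.49% of the T cell level, which is read as background. Of 5 interferon regulatory factors outside the list, Irf5 and Irf8 were called higher in pDCs in both libraries, and Irf8 reached 2113 and 1735 CPM. Of 6 receptor chains, 5 could be compared. Ifnar2 was called higher in both libraries (545 and 672 CPM against 120 and 109 CPM) and Ifngr1, a receptor chain for interferon gamma, lower (122 and 132 CPM against 736 and 995 CPM, 16.6% and 13.3% of the T cell level, at background in the library labelled WT and just above it in that labelled dKO). The kinases Jak1 and Jak2 were called lower in both libraries. Of 4 negative regulators, Ptpn6 was called higher and Socs1 lower in both libraries.

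Few UMIs of the type I interferon genes themselves were counted. Of 18 type I genes, 14 had no UMI in the library labelled WT and 15 had none in that labelled dKO. Windows shared with other genes were not computed for the interferon genes, so a loss of reads between similar copies was not tested. All 18 together gave 6 UMIs in WT pDCs and 21 in dKO pDCs, or 1.68 CPM (at most 3.67) and 1.70 CPM (at most 2.60). In the library labelled dKO, 15 of the 21 were Ifnb1, from 6 pDCs, with 5 UMIs in the highest cell. Ifnl2, a type III interferon gene, gave another 15 UMIs from 11 pDCs, and no pDC held both. In the library labelled WT each of Ifnb1 and Ifnl2 gave 1 UMI. The few cells with Ifnb1 or Ifnl2 were thus mostly pDCs, and with 1 library per genotype and unequal numbers of pDCs no difference between the libraries is read from them. Interferon gamma was plentiful in T cells, at 256 CPM in the library labelled WT and 81.5 CPM in that labelled dKO.

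C1q myeloid cells held more RNA of Rsad2 and of 4 of the 5 genes of the Oas family than T cells. In C1q myeloid cells of the library labelled WT, 8 of 38 genes were called higher than in T cells, against 12% of all genes, and 6 lower, against 16.1%. With the library labelled dKO, 11 of 38 were called higher, against 12.5%, and 4 lower, against 20.9%. The median log2 ratio was 0.33 and 0.41, beside −0.07 and −0.27 over all genes. The same 8 genes were called higher in both libraries (Oas1a, Oas2, Oasl1, Oasl2, Rsad2, Rnf213, Slfn5 and Ifi44), and the interval of Ifi44, which rests on few UMIs, included 0 in both. Isg20 was called lower in both, at 32.2% and 16.3% of its T cell level. The 6 T cell genes outside the assignment stood in C1q myeloid cells at 22.5% to 38.5% and at 18.3% to 28.4% of theirs, so Isg20 is read as background there. Oas1a stood at 85.4 and 45.9 CPM in C1q myeloid cells and at 17.6 and 22.3 CPM in T cells. Rsad2 stood at 35.8 and 49.2 CPM against 8.47 and 6.94 CPM, a log2 ratio of 2.08 (1.13 to 2.90) and 2.83 (2.30 to 3.33). Slfn5, of the Schlafen family of growth regulators, stood at 99.2 and 59.3 CPM against 31.6 and 22.9 CPM.

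C1q-negative myeloid cells gave a like picture. There, 12 of 38 genes of the library labelled WT were called higher than in T cells, against 12.2% of all genes, and 5 lower, against 18.4%. For dKO, 14 of 37 were called higher, against 11.7%, and 3 lower, against 21.5%. In all, 7 genes were called higher in both libraries, the same as in C1q cells without Oas2 and Ifi44 and with Dhx58, a regulator of RNA sensing. Rnf213, a giant ubiquitin ligase, stood at 194 and 197 CPM against 86.6 and 57.3 CPM in T cells. Ifit1 stood at 9.24 and 5.64 CPM against 20.9 and 16.4 CPM, and it was called lower, as Isg20 was. Those Ifit1 levels are 3 UMIs in each library, so no difference is read for Ifit1. The T cell genes outside the assignment stood in these cells at 9.04% to 27.9% and at 7.03% to 12.5% of their T cell level, and Isg20 at 36.1% and 33.8%. These classes are small, with 324614 and 532376 UMIs, so that 3 UMIs amount to 9.24 and 5.64 CPM.

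Gbp2, Stat2 and Ifi27l2a fell on opposite sides of 0 in the C1q myeloid cells of the libraries, with intervals that excluded 0. Gbp2 stood at 19.3 CPM in C1q myeloid cells of the library labelled WT, below its T cell level (log2 ratio −1.16, −2.48 to −0.11), and at 169 CPM in the library labelled dKO, above it (1.46, 1.20 to 1.70). Stat2 gave 0.89 and −0.96, and Ifi27l2a 0.33 and −0.75. In C1q-negative myeloid cells, Gbp2 stood at 30.8 and 274 CPM. It was found in 7 of 140 C1q myeloid cells labelled WT and 72 of 242 labelled dKO, with at most 20 UMIs in a cell, so the higher level was spread over many cells. These cells were not thinned, and their median depth was 1741 and 3529.5 UMIs, so the 2 shares of cells are not compared. Neutrophil transcripts in C1q myeloid cells stood at 52.3 and 3292 CPM. Without the 1 and 5 cells that had 3 or more such UMIs, they stood at 41.9 and 46.3 CPM and Gbp2 at 19.5 and 167 CPM.

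Among T cells, the Ifng class, cells with a UMI of interferon gamma, had a median log2 ratio of the listed genes above that over all genes. Against all other T cells of the library labelled WT, 2 of 38 genes were called higher, against 1.36% of all genes, and 0 lower, against 4.78%. The median log2 ratio was 0.34, beside 0.02 over all genes, and the interval lay above 0 for 24 genes and below 0 for 1. For the library labelled dKO, 5 of 37 were called higher, against 4.05%, and 0 lower, against 7%, with a median of 0.28 beside −0.06 over all genes. There the interval lay above 0 for 10 genes and below 0 for 2. Here and in the comparisons below, no share of all genes stands beside such interval counts, so they are not read on their own. Ifit3 was called higher in both libraries, at 23.0 and 14.6 CPM in Ifng T cells, with log2 ratios of 1.07 (0.64 to 1.48) and 1.68 (0.83 to 2.44). Ifit1 stood at 33.0 and 31.0 CPM, with 17.5 and 15.4 CPM in the other T cells. Isg20 went opposite ways, with 0.54 and −0.60. Ifi27l2a was the gene below 0 in the library labelled WT (−0.20), and it was also lower in the library labelled dKO (−0.37).

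Cycling T cells, with UMIs of mitotic genes, had lower levels of several genes. Of 38 genes, 0 were called higher than in all other T cells of the library labelled WT, against 6.56% of all genes, and 4 lower, against 7.61%. Of 37 in that labelled dKO, 0 were called higher, against 7.15%, and 12 lower, against 11.2%. Ifit3, Oasl1, Ifi213 and Slfn5 were called lower in both. Slfn5 stood at 7.16 and 8.10 CPM in cycling T cells, against 31.6 and 22.9 CPM over all T cells, and its log2 ratio to the other T cells was −2.34 (−3.11 to −1.67) and −1.64. Slfn1 was lower as well, with ratios of −0.96 and −1.49. Phf11b and Ifi27l2a lay above 0 in both libraries, with 0.59 and 0.38 for Phf11b.

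Naive-like T cells, which hold markers such as Ccr7 and Lef1, were lower in Isg20 and Isg15 in both libraries and higher in Slfn1. They had 1 of 38 genes called higher than in all other T cells of the library labelled WT, against 2.73% of all genes, and 5 lower, against 9.48%. From dKO cells, 2 of 37 were called higher, against 3.61%, and 3 lower, against 11.3%. The median log2 ratio was −0.30 and −0.08, beside −0.15 over all genes in both libraries. The interval lay below 0 for 22 genes and above 0 for 2 in the library labelled WT, and below 0 for 8 and above 0 for 6 in that labelled dKO. Isg15 stood at 89.2 and 109 CPM, with log2 ratios of −1.03 (−1.20 to −0.87) and −0.78. Isg20 gave −1.11 and −1.49 and was the gene called lower in both. Slfn1, a gene linked to T cell quiescence, stood at 108 and 111 CPM and gave 0.27 (0.11 to 0.44) and 1.61 (1.37 to 1.84).

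Foxp3 T cells, the class that holds regulatory T cells, had no listed gene called higher than in the other T cells. The library labelled WT had 0 of 38 genes called higher, against 5.78% of all genes, and 0 lower, against 6.15%. In that labelled dKO, 0 of 37 were called higher, against 1.99%, and 1 lower, against 5.03%. The median log2 ratio was 0.02 and 0.06, beside 0.00 and 0.04 over all genes. The interval lay above 0 for 4 genes and below 0 for 2 in the library labelled WT, and above 0 for 12 and below 0 for 5 in that labelled dKO. In the latter Isg20 gave 0.72 (0.61 to 0.83), Ifit1 0.68, Oas1a 0.67 and Slfn1 −0.89 (−1.16 to −0.64). Ifi27l2a stood at 1670 and 1381 CPM in Foxp3 T cells, with log2 ratios of 0.76 (0.69 to 0.83) and 0.31 (0.27 to 0.35), below 2-fold. Il17 T cells, the smallest class, had 2 of 38 genes called higher (6.34% of all genes) and 9 lower (7.61%) in the library labelled WT, and 0 of 37 (5.19%) and 9 (10.1%) in that labelled dKO. Their median log2 ratio was −0.18 and −0.69, beside 0.00 and −0.03 over all genes. The interval lay below 0 for 5 and 14 genes and above 0 for 0 in both libraries. Ifit1, Ifit2 and Ifit1bl1 were past 2-fold in both, on 1 to 3 UMIs each in Il17 T cells. The intervals of Ifit2 and Ifit1bl1 included 0 in both libraries and that of Ifit1 did so in the library labelled WT (−4.90 to 0.01), so no difference is read for them at this depth except for Ifit1 in the library labelled dKO (−1.64, −3.92 to −0.08). The remaining T cells had 0 of 38 (0.993%) and 1 (4.3%) called in the library labelled WT and 0 of 37 (1.02%) and 0 (3.77%) in that labelled dKO.

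Between the libraries, most of the genes were lower in T cells of the library labelled dKO. Of 38 genes, 8 were called lower, against 6.18% of all genes, and 1 higher, against 6.71%. The median log2 ratio of dKO to WT was −0.38, beside −0.03 over all genes, and the interval lay below 0 for 23 genes and above 0 for 7. The genes called lower were Ifit3, Ifit3b, Oas2, Oas3, Oasl2, Ifi206, Ifi213 and Slfn1, and Isg20 was the gene called higher. Thus 2 of 5 Ifit genes, 3 of 5 Oas genes and 2 of 4 p200 genes were called lower. The make-up of the T cells bears on these ratios. With T cells labelled dKO weighted to the class shares of those labelled WT, an alternative chosen after seeing the data, 7 genes were called lower and the median was −0.40, but 6 of the 9 ratios computed again moved toward 0 by more than their counting interval. Among them Slfn1 went from −1.11 to −0.55, short of 2-fold, Ifit3 from −1.39 to −1.01, Ifi206 from −1.58 to −1.23 and Ifi213 from −1.52 to −1.06. With no replicate of either library, these differences could not be tested against the spread between mice.

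**Figure D3:**
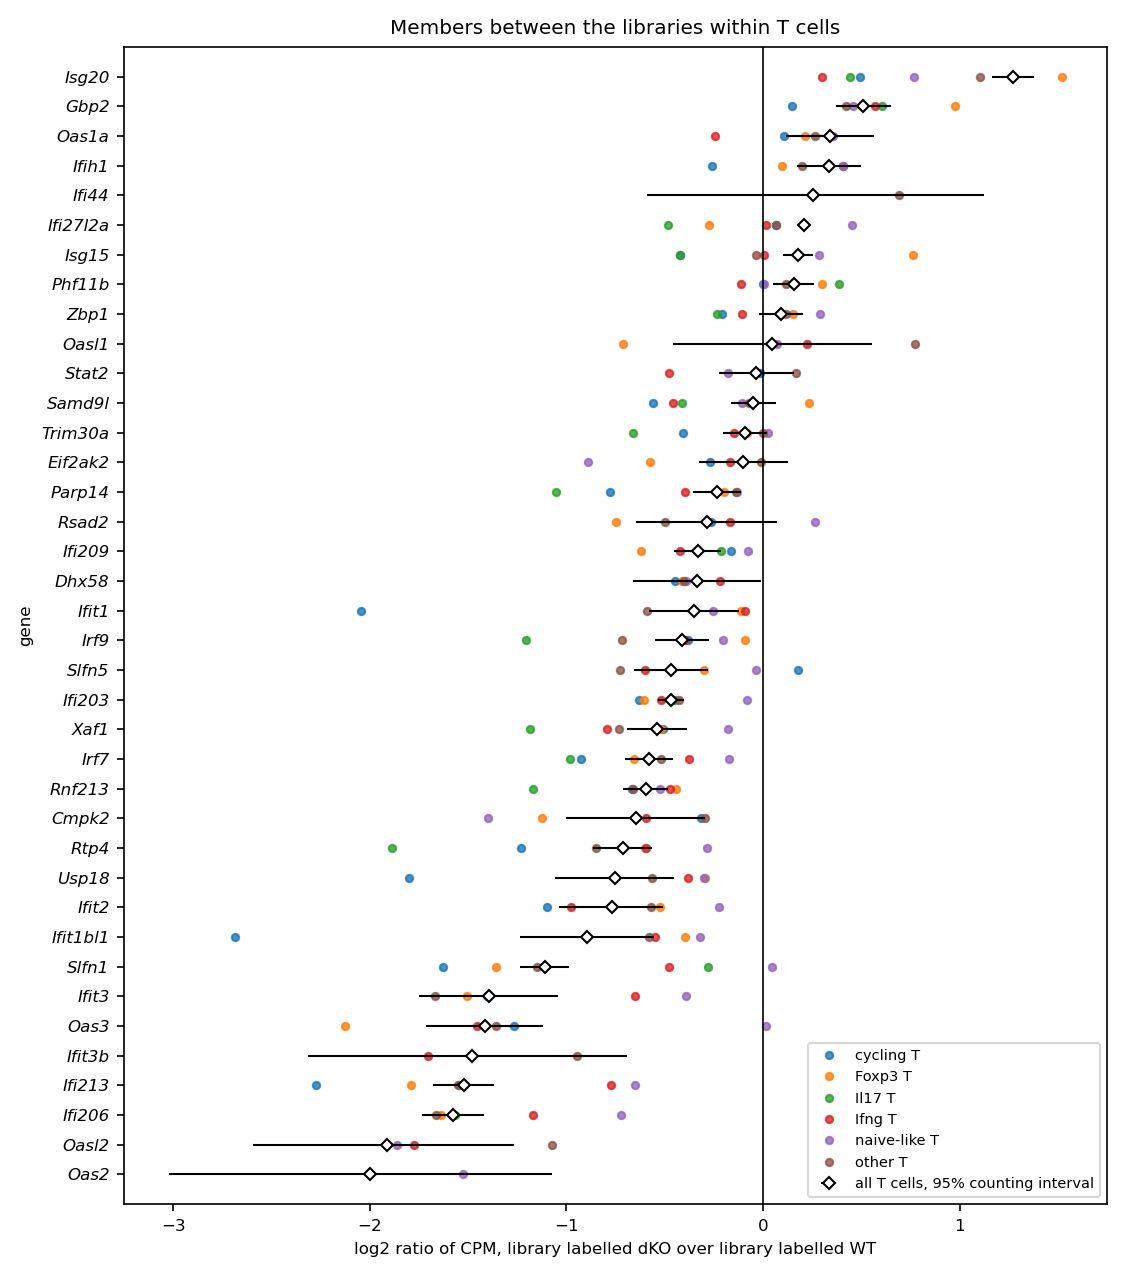
Log2 ratio of CPM in the library labelled dKO over the library labelled WT for each gene, over all T cells (open diamond with its 95% counting interval) and within each of 6 T cell classes (coloured points, left out where a class had too few UMIs). Ifi206 and Ifi213 lie at −0.65 or lower in every class, and Isg20 and Gbp2 lie above 0 in every class.

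Ifi206 stood at 73.3 CPM in T cells of the library labelled WT and 24.6 CPM in that labelled dKO, a log2 ratio of −1.58 (−1.73 to −1.42). Ifi213 stood at 72.3 and 25.2 CPM, a ratio of −1.52 (−1.68 to −1.37). At 1000 UMIs per cell, Ifi206 was found in 6.72% and 2.65% of T cells and Ifi213 in 7.18% and 2.26%. The ratio of Ifi206 ranged from −1.67 to −0.72 over the 6 T cell classes, and that of Ifi213 from −2.27 to −0.65. Their p200 relatives moved less, with −0.47 (−0.53 to −0.40) for Ifi203 and −0.33 (−0.45 to −0.21) for Ifi209. In pDCs, Ifi206 was also lower (10.7 and 2.52 CPM, ratio −2.08), but those levels are at the background described above. In C1q myeloid cells it was lower too, at 44.1 and 10.1 CPM (−2.13, −3.49 to −0.86).

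Isg20 stood at 59.8 CPM in T cells of the library labelled WT and 144 CPM in that labelled dKO, a log2 ratio of 1.27 (1.16 to 1.38). It was found in 5.81% (5.23 to 6.44) and 13.0% (12.3 to 13.7) of T cells at 1000 UMIs per cell. Within classes, the ratio was 1.52 (1.18 to 1.89) in Foxp3 T cells, 0.77 (0.38 to 1.16) in naive-like T cells and 0.30 (−0.03 to 0.62) in Ifng T cells. In pDCs it was −0.37 (−0.77 to 0.05). With the T cell classes weighted as above, the ratio was 0.83, no longer past 2-fold, and 0 genes were called higher. Gbp2 stood at 43.2 and 61.5 CPM in T cells (0.51, 0.37 to 0.65) and lay above 0 in all 6 classes.

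Of the 19 genes that could be compared in all 6 T cell classes, 10 lay below 0 in every class (Rnf213, Irf7, Irf9, Ifi203, Ifi206, Ifi209, Ifi213, Rtp4, Xaf1 and Parp14) and 2 above 0 in every class (Isg20 and Gbp2). These are signs of point values. The interval lay below 0 in all 6 classes for Rnf213, Ifi206 and Ifi213, but in 2 for Irf9 and 3 for Ifi209 and Parp14. For Isg20 and Gbp2 it lay above 0 in 4. No such count is given over all genes, so these counts are not read as particular to the listed genes. Irf7 stood at 77.2 and 51.7 CPM in T cells (−0.58, −0.70 to −0.46) but at 290 and 277 CPM in pDCs (−0.07, −0.17 to 0.04). Isg15 differed little over all T cells (0.18, 0.10 to 0.25), with 0.77 (0.50 to 1.04) in Foxp3 T cells. Slfn1 was at 94.1 and 43.6 CPM over all T cells (−1.11) and at 108 and 111 CPM in naive-like T cells (0.04, −0.20 to 0.29), so the difference was not seen in the T cell class in which it was most abundant in the library labelled dKO.

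Counts within classes were as follows. In cycling T cells, 0 of 33 genes were called higher (2.93% of all genes) and 10 lower (5.25%). In Foxp3 T cells these counts were 1 of 34 (6.06%) and 6 (5.24%), and in Il17 T cells 0 of 19 (4.03%) and 7 (4.36%). In Ifng T cells they were 0 of 36 (3.07%) and 4 (6.13%), in naive-like T cells 0 of 36 (2.63%) and 3 (3.7%), and in other T cells 1 of 37 (6.36%) and 6 (5.35%). Outside T cells they were 1 of 34 (3.1%) and 4 (3.74%) in pDCs, 2 of 28 (5.26%) and 4 (4.72%) in C1q myeloid cells, and 4 of 27 (5.1%) and 1 (5.68%) in C1q-negative myeloid cells. The shares called lower in naive-like T cells, pDCs and Ifng T cells rest on 3 or 4 genes each. In pDCs the gene called higher was Gbp2, and those called lower were Oas1a, Ifi206, Ifi213 and Slfn1. Of these, Gbp2, Ifi206 and Slfn1 are read above as background in pDCs, so no pDC difference is read for them.

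Of the other pathway genes in T cells, Irf8 was the one of 5 regulatory factors past 2-fold, at 21.9 and 46.4 CPM in the libraries labelled WT and dKO, beside 2113 and 1735 CPM in pDCs. Single pDC genes outside the assignment stood in T cells at up to 5.27% and 6.30% of their pDC level, and Irf8 stood at a smaller share. In the library labelled WT, Irf8 was at 39.6 CPM in Foxp3 T cells and 20.6 CPM in the other T cells (log2 ratio 0.94, 0.44 to 1.42). How much of its T cell level is background was not tested. The 6 pDC genes used for the assignment summed to 13.9 and 48.7 CPM in T cells. Ifng itself was called lower, at 256 and 81.5 CPM (−1.65, −1.73 to −1.56). None of 5 receptor chains, 8 sensing genes or 4 negative regulators that could be compared was called in either direction.

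A small part of the cells held several genes of the acute response at once. The core of that response was taken as 9 genes with a row (Isg15, Ifit1, Ifit2, Ifit3, Ifit3b, Rsad2, Usp18, Cmpk2 and Oasl1), and a cell counted where at least 3 of them were found with the cell thinned to 1000 UMIs. The number of such cells was computed as the expectation over all possible thinnings. It was 46.0 of 5849 T cells in the library labelled WT, or 0.786% (0.576 to 1.05), and 37.6 of 8498 in the library labelled dKO, or 0.442% (0.312 to 0.608). Thinning left out 606 and 1854 T cells with fewer UMIs, and without thinning the shares were 1.91% (1.59 to 2.27) and 0.860% (0.691 to 1.06). Among pDCs the expected shares were 0.402% (0.120 to 0.981) and 0.858% (0.589 to 1.21). Among all myeloid cells they were 1.20% (0.194 to 3.85) and 1.09% (0.292 to 2.79). The intervals of the libraries overlapped slightly in T cells and overlapped in the other lineages.

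**Figure D4:**
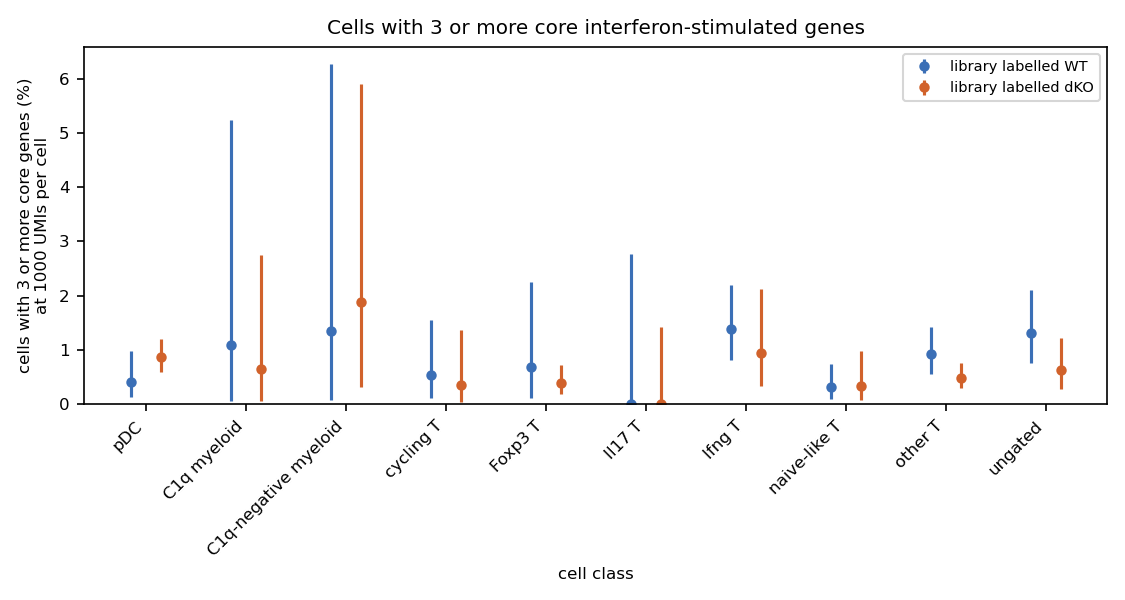
Expected percent of cells with 3 or more of the 9 core genes at 1000 UMIs per cell, by class and library, with 95% intervals, and ungated marks cells that no marker list assigned. Ifng T cells of the library labelled WT reach 1.37% and naive-like T cells 0.309%, and the intervals of most classes overlap.

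Within T cells, the Ifng class had the highest share in both libraries, at 1.37% (0.802 to 2.19) and 0.939% (0.320 to 2.12). It supplied 37.1% of the expected cells with 3 or more core genes in the library labelled WT, while making up 21.2% of the T cells with at least 1000 UMIs, and 14.2% against 6.68% of such cells in the library labelled dKO. Naive-like T cells reached 0.309% (0.0948 to 0.741) and 0.326% (0.0626 to 0.978), and Foxp3 T cells 0.670% (0.0965 to 2.25) and 0.375% (0.173 to 0.710). In the library labelled WT the interval of Ifng T cells lay above that of naive-like T cells, and the other intervals overlapped. Of Il17 T cells, 0 of 131 qualified in the library labelled WT. With 3 cells as the upper limit of a count of 0, that allows up to 2.29%. In the library labelled dKO, 0 of 258 qualified in a single thinning, which allows up to 1.16%. Without thinning, 0 of 139 and 1 of 271 did.

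T cells with Ifit1 held Ifit3 and Isg15 more often than T cells without it. At 1000 UMIs, Ifit3 was found in 17.8% (10.9 to 26.7) of the 101 T cells with Ifit1 and in 0.731% (0.527 to 0.986) of those without it among cells labelled WT, and in 10.1% and 0.298% among cells labelled dKO. Isg15 was found in 46.5% (36.5 to 56.7) of T cells with Ifit1 and in 11.9% of those without it, and in 42.2% and 13.1% in the library labelled dKO. These are single thinnings of each cell with 1 seed.

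The 29 genes outside the core, which did not choose these cells, were compared between T cells with 3 or more core genes (51 and 29 in this thinning) and T cells with none (4869 and 7069). Among cells labelled WT, 29 of 29 were found in a larger share of those with 3 or more core genes, and for 27 the intervals did not overlap. Among cells labelled dKO these counts were 28 and 25. Of all genes outside the core with at least 20 UMIs over both sets of cells, 40.2% and 33.6% were found in the larger share of cells with 3 or more core genes, and the intervals did not overlap for 2.24% and 1.43%. With the same minimum, 27 and 26 members were left, for 27 and 23 of which the intervals did not overlap. The median share over the 29 genes was 27.5% against 4.95% and 34.5% against 3.47%. Over 10 thinnings the median share in cells with 3 or more core genes ranged from 27.5 to 36.4% and from 20.5 to 34.5%, so that this thinning gave the lowest value for cells labelled WT and the highest for cells labelled dKO, and no order between the libraries can be read from it. The number of genes with the larger share ranged from 27 to 29 and from 27 to 28. Slfn5 was found in 49.0% against 2.36% and in 37.9% against 1.82%, Zbp1, a sensor of nucleic acid that can trigger cell death, in 47.1% against 5.91% and 55.2% against 6.30%, and Ifi203 in 68.6% against 22.2% and 55.2% against 16.5%.

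**Figure D5:**
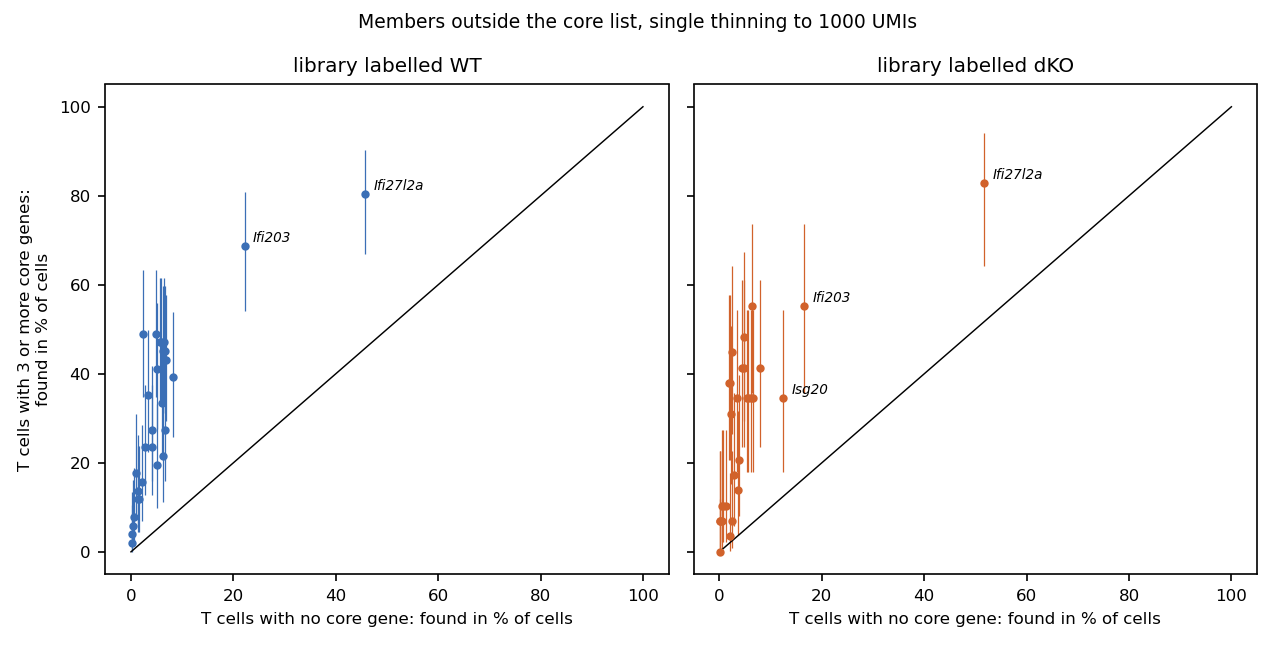
Percent of T cells with a UMI of each of 29 genes outside the core, in T cells with no core gene (x axis) and with 3 or more core genes (y axis), at 1000 UMIs per cell in 1 thinning, 1 panel per library. Nearly all points lie above the diagonal, with Ifi27l2a at the far right.

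Other genes in these cells gave different results. Ifngr1 was found in 35.3% (22.4 to 49.9) of T cells with 3 or more core genes and 47.4% of those with none in the library labelled WT, and in 41.4% and 59.2% in the library labelled dKO. Ifnar1 was found in 1.96% (0.0496 to 10.4) against 10.7%, and in 10.3% against 9.44%. Ifng was found in 31.4% (19.1 to 45.9) against 15.0% (14.0 to 16.0), and in 10.3% (2.19 to 27.4) against 5.49%. The pDC gene Siglech was found in 0 of the 51 and 0 of the 29 cells and the myeloid gene Lyz2 in 0 and 2 of them, against 1.66% and 2.80% of the T cells with none. In pDCs of the library labelled dKO, 33 cells had 3 or more core genes in this thinning, and 24 of the 29 other genes were found in a larger share of them than of pDCs with none, with a range of 22 to 25 over 10 thinnings. Of all genes with at least 20 UMIs, 37.4% were, and the intervals did not overlap for 1.83%. With the same minimum, 21 of 21 members were, and the intervals did not overlap for 20. In the library labelled WT 4 pDCs had 3 or more core genes, and the count was 14 of 29, with a range of 11 to 21. With at least 20 UMIs it was 11 of 15 members, beside 23.1% of all genes. There the intervals did not overlap for 3 members and for 0.596% of all genes.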

How the data were processed

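Hepatic CD4+ T cells were sorted from pooled mice and profiled by 10x 5′ single-cell RNA-seq, 1 library per genotype. The deposited counts are UMIs per gene and cell, which the authors made with Cell Ranger 7.0.1 on mm10 (submitters' processing notes), with no normalization. Reads of near-identical genes can be lost or split by such counting. A cell was kept if it had over 200 detected genes and if mitochondrial genes gave less than 5% of its UMIs. A lineage needed at least 3 UMIs of its gate genes from at least 2 genes and 75% of the gate UMIs of all 3 lineages. Cells without that were left out as mixed or unassigned, and no doublet caller was run. T cells were put in the first class that fitted, in the order cycling, Foxp3, Il17, Ifng and naive-like, so the gate genes are no results. CPM intervals are exact Poisson, ratios conditional binomial and shares Clopper-Pearson (95%). A gene was compared with at least 20 UMIs over both groups. With 1 library per genotype there is no test and no p-value. edgeR 4.0.16 (R 4.3.3) gave TMM factors only. The ratio step was tested on simulated data. Python 3.11.15, numpy 2.4.6, pandas 2.3.3, scipy 1.17.1 and matplotlib 3.10.9 were used. Values were printed by rule for the core list, for up to 10 genes at each end of a comparison and for pathway genes of at least 50 CPM in a class, and other named genes were chosen after their values were seen. The listed genes and all lists were chosen with earlier results of these data known. Promoters came from RefSeq (GRCm38.p6). Some pathway and marker genes are not reported here.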

Additional observations from a re-analysis of the deposited data

Results flagged for a closer look

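In several comparisons a gene lay on opposite sides of 0 in the 2 libraries, or in 2 cell classes, with both counting intervals excluding 0. None of these differences was itself tested, since each genotype has 1 library. The log2 ratio of C1q myeloid cells to T cells was −1.16 in the library labelled WT and 1.46 in that labelled dKO for Gbp2, 0.33 and −0.75 for Ifi27l2a, and 0.89 and −0.96 for Stat2. Against all other T cells, Isg15 gave −0.39 and 0.32 in Foxp3 T cells, Isg20 gave 0.54 and −0.60 in Ifng T cells, Ifi203 gave −0.27 and 0.20 in naive-like T cells, and Irf9 gave 0.24 and −0.22 in other T cells.

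Ifi27l2a and Isg15 differed between the libraries in directions that varied with the class. The log2 ratio of dKO to WT for Ifi27l2a was 0.45 in naive-like T cells and 0.064 in other T cells, but −0.20 in pDCs, −0.88 in C1q myeloid cells, −0.34 in C1q-negative myeloid cells, −0.27 in Foxp3 T cells and −0.49 in Il17 T cells. For Isg15 it was 0.28 in pDCs, 1.16 in C1q-negative myeloid cells, 0.77 in Foxp3 T cells and 0.28 in naive-like T cells, but −0.42 in cycling T cells.

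Cells that no marker list assigned to a lineage, which entered no comparison, also included cells with 3 or more core genes. Their expected share at 1000 UMIs was 1.30% (0.746 to 2.10) and 0.622% (0.273 to 1.21).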

How the results depend on the processing

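Of 1268 values computed again under other settings, 1095 moved by less than their counting interval or, for counts, by less than 1.5 times, 172 moved by more and 1 reversed. Of 225 medians 224 were the same, and of 513 ratios of single genes 473 were, but with T cells labelled dKO weighted to the class shares of those labelled WT only 3 of 9 were. The reversed value was Ifi203 in pDCs, where dKO over WT gave a log2 ratio of 0.074 with CPM averaged over cells and −0.23 with summed UMIs. The median over T cells of dKO to WT was −0.55 among cells with receptor contigs and −0.38 among all. Counts of genes called that moved past 1.5 times are given below with the reported count in parentheses, and small counts do so by 1 gene. With calls at 1.5-fold in place of 2-fold, for classes labelled WT, the counts were C1q myeloid 11 lower (6), cycling T 2 higher (0) and 9 lower (4), Foxp3 T 5 higher (0) and 3 lower (0), Ifng T 8 higher (2), naive-like T 2 higher (1) and 14 lower (5), other T 2 lower (1). Under the same setting, for classes labelled dKO, the counts were C1q myeloid 17 higher (11) and 9 lower (4), C1q-negative myeloid 5 lower (3), cycling T 1 higher (0) and 19 lower (12), Foxp3 T 3 higher (0) and 4 lower (1), Il17 T 24 lower (9), Ifng T 8 higher (5) and 2 lower (0), naive-like T 7 higher (2) and 7 lower (3), other T 4 higher (0). Again there, for dKO over WT, the counts were all T 14 lower (8), pDC 3 higher (1) and 7 lower (4), C1q myeloid 11 lower (4), C1q-negative myeloid 6 lower (1), Foxp3 T 3 higher (1) and 12 lower (6), Il17 T 1 higher (0), Ifng T 11 lower (4), naive-like T 1 higher (0) and 6 lower (3), other T 3 higher (1) and 13 lower (6). With T cells also required to hold a receptor contig and other lineages to lack one, for classes labelled WT, the counts were Foxp3 T 2 higher (0), Il17 T 2 lower (9), Ifng T 4 higher (2), naive-like T 2 higher (1) and 3 lower (5), other T 2 lower (1). In this setting, for classes labelled dKO, the counts were cycling T 1 higher (0), Foxp3 T 1 higher (0) and 0 lower (1), Il17 T 14 lower (9), Ifng T 3 higher (5) and 1 lower (0), naive-like T 4 higher (2), other T 2 higher (0). Again there, for dKO over WT, the counts were all T 2 higher (1), pDC 2 lower (4), C1q-negative myeloid 2 higher (4) and 2 lower (1), Il17 T 4 lower (7), Ifng T 9 lower (4), naive-like T 1 lower (3). With at least 100 UMIs required over both groups, for classes labelled WT, the counts were C1q myeloid 5 higher (8), Il17 T 0 higher (2), Ifng T 1 higher (2), naive-like T 0 higher (1), other T 0 lower (1). Under the same setting, for classes labelled dKO, the counts were Foxp3 T 0 lower (1). Again there, for dKO over WT, the counts were pDC 0 higher (1) and 2 lower (4), C1q myeloid 1 higher (2) and 0 lower (4), C1q-negative myeloid 0 lower (1), cycling T 4 lower (10), Foxp3 T 3 lower (6), Il17 T 0 lower (7), Ifng T 2 lower (4), naive-like T 0 lower (3). With CPM averaged over cells, for classes labelled WT, the counts were Foxp3 T 1 higher (0) and 2 lower (0), Il17 T 1 higher (2), naive-like T 2 higher (1), other T 2 lower (1). In this setting, for classes labelled dKO, the counts were C1q myeloid 7 lower (4), cycling T 1 higher (0), Foxp3 T 4 lower (1), Il17 T 15 lower (9), other T 1 higher (0). Again there, for dKO over WT, the counts were pDC 2 higher (1), C1q-negative myeloid 2 lower (1), cycling T 6 lower (10), other T 2 higher (1). With at least 5 marker UMIs for a lineage, for classes labelled WT, the counts were cycling T 2 lower (4), Foxp3 T 1 higher (0), Il17 T 1 higher (2), Ifng T 1 higher (2). Under the same setting, for classes labelled dKO, the counts were Foxp3 T 0 lower (1), naive-like T 1 higher (2). Again there, for dKO over WT, the counts were C1q-negative myeloid 2 lower (1), Foxp3 T 2 higher (1). With 90% of marker UMIs required from 1 lineage, for classes labelled WT, the counts were Il17 T 1 higher (2), naive-like T 2 higher (1). In this setting, for classes labelled dKO, the counts were Foxp3 T 2 lower (1), naive-like T 5 lower (3), other T 2 higher (0). Again there, for dKO over WT, the counts were pDC 2 higher (1), C1q myeloid 1 higher (2). With edgeR's TMM factors, for classes labelled WT, the counts were naive-like T 3 lower (5). Under the same setting, for dKO over WT, the counts were pDC 2 lower (4), Foxp3 T 2 higher (1). With no filter on cells, for dKO over WT, the counts were pDC 2 lower (4). With T cells labelled dKO weighted to the class shares of those labelled WT, for dKO over WT, the counts were all T 0 higher (1). Thinned to 2000 UMIs, the percent of cells past the core threshold was all T WT 1.64 (0.786), pDC WT 1.08 (0.402), all myeloid WT 4.03 (1.2), Ifng T WT 2.73 (1.37), all T dKO 0.835 (0.442), pDC dKO 1.73 (0.858), Foxp3 T dKO 0.866 (0.375). Not thinned, the percent of cells past the core threshold was all T WT 1.91 (0.786), pDC WT 1.13 (0.402), all myeloid WT 4.45 (1.2), Ifng T WT 2.95 (1.37), all T dKO 0.86 (0.442), pDC dKO 2.57 (0.858), all myeloid dKO 4.51 (1.09), Foxp3 T dKO 0.92 (0.375). With 2 or more core genes, the percent of cells past the core threshold was all T WT 2.2 (0.786), pDC WT 1.54 (0.402), all myeloid WT 3.94 (1.2), Ifng T WT 3.33 (1.37), Foxp3 T WT 2.27 (0.67), all T dKO 1.52 (0.442), pDC dKO 2.23 (0.858), all myeloid dKO 3.58 (1.09), Ifng T dKO 2.3 (0.939), Foxp3 T dKO 1.51 (0.375). Among T cells with a receptor contig labelled dKO, that percent was 0.301 (0.442). The cause was not tested for any of these. The class weighting and the single thinnings were chosen after seeing the data. No paired analysis was possible because each genotype has 1 library, and for the same reason no replicate could be left out. Depth limits the myeloid and Il17 classes, where 3 UMIs already amount to several CPM.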
